A study of Homo sapiens with 4 samples.

Results

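The HOX cluster genes are the protein-coding genes whose symbol is HOXA, HOXB, HOXC or HOXD followed by a number only. The rule that picks them reads the symbol and no measured value, and 38 of them are described here, of 57768 gene entries and 19403 protein-coding genes in the files. Expression was measured by RNA-seq in 4 libraries labelled HepG2, a long-used human cell line from a liver tumour. The 2 WT libraries came from cells with the C/EBPβ enhancer intact, and the 2 C/EBPβ enh-/- libraries came from cells in which both copies of that enhancer had been deleted with CRISPR/Cas9. The labels name a blank CRISPR/Cas9 vector and guide vectors against the C/EBPβ eRNA, the transcript of the enhancer, but not which library received which, and the number of clones behind each genotype is not given in the sources used here. All 4 libraries were grown in the same medium with no drug.

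HOX genes encode transcription factors that bind DNA through a homeodomain and give cells a position along the axes of the embryo. They lie in 4 clusters that arose by duplication, and genes with the same number in different clusters (a paralog group) are each other's closest relatives. Low numbers are used anteriorly and high numbers posteriorly, the order along the chromosome follows the order of use, and adult cells and cell lines often keep the HOX pattern of the place they came from. Posterior genes of the HOXA and HOXD clusters pattern the limbs and the urogenital tract, and the pattern is held by Polycomb and Trithorax group proteins.

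Values are FPKM, the number of fragments of a gene divided by transcript length and library size, so levels may be set beside each other between genes. In units of 1000000 fragments, the libraries held about 21.7 to 48.3 as read from the spacing of the low values, with C/EBPβ enh-/- library 1 the shallowest. For a transcript of 2 kb, an FPKM of 1 then stands for 79.2 and 87.4 fragments in WT, and for 43.4 and 96.6 in C/EBPβ enh-/- libraries. CEBPB, the gene the deleted enhancer acts on, was measured at 30.6 and 19.2 FPKM in WT cells and at 12.4 and 11.8 FPKM in C/EBPβ enh-/- cells, and its log2 fold change was −0.94 with an adjusted p of 0.125 (limma). The labelled cell type was checked against 20 hepatocyte markers, among them ALB, TTR, APOA1 and HNF4A. All 20 were below an FPKM of 1 in each of the 4 libraries and APOC3 was listed at 0 throughout. Their FPKM summed to 0.289 and 0.557 in WT cells and to 0.843 and 0.444 in C/EBPβ enh-/- cells, so these markers do not bear out the label and the cells are called here by their genotype.

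The HOX pattern of the cells was posterior and uneven between the clusters. Of the 38 genes, 34 were above 0 in at least 1 library, 16 reached an FPKM of 1 in at least 1 library and 9 did so in all 4. Few anterior genes were expressed. Of the 7 genes of paralog groups 1 to 3 described here, 1 (HOXB3) had a mean FPKM of at least 1, against 5 of 15 in groups 4 to 8 and 8 of 16 in groups 9 to 13. By cluster, a mean of at least 1 was reached by 4 of 10 genes in HOXA, 4 of 10 in HOXB, 5 of 9 in HOXC and 1 of 9 in HOXD. HOXB1, HOXB8, HOXD1 and HOXD12 were listed at 0 in all libraries. The genes with such a mean made up 36.84% of the members, against 56.22% of all protein-coding genes.

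The order of the mean levels over the 4 libraries began with HOXC10 (8.57 FPKM, higher than 67.5% of protein-coding genes) and HOXB7 (7.23 FPKM, higher than 64.5%). HOXA10 (5.39 FPKM), HOXA11, HOXC11, HOXC13, HOXC9 and HOXA13 followed. HOXC10 and HOXB7 are therefore moderately expressed genes in these cells, and no HOX gene exceeded an FPKM of 10 in any library. HOXC10 was above HOXB7 in each of the 4 libraries, although the 2 ranges over the libraries (7.01 to 9.66 FPKM and 4.87 to 8.61 FPKM) overlapped. HOXA10 was above HOXA11 in 3 of the 4 libraries.

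**Figure D1:**
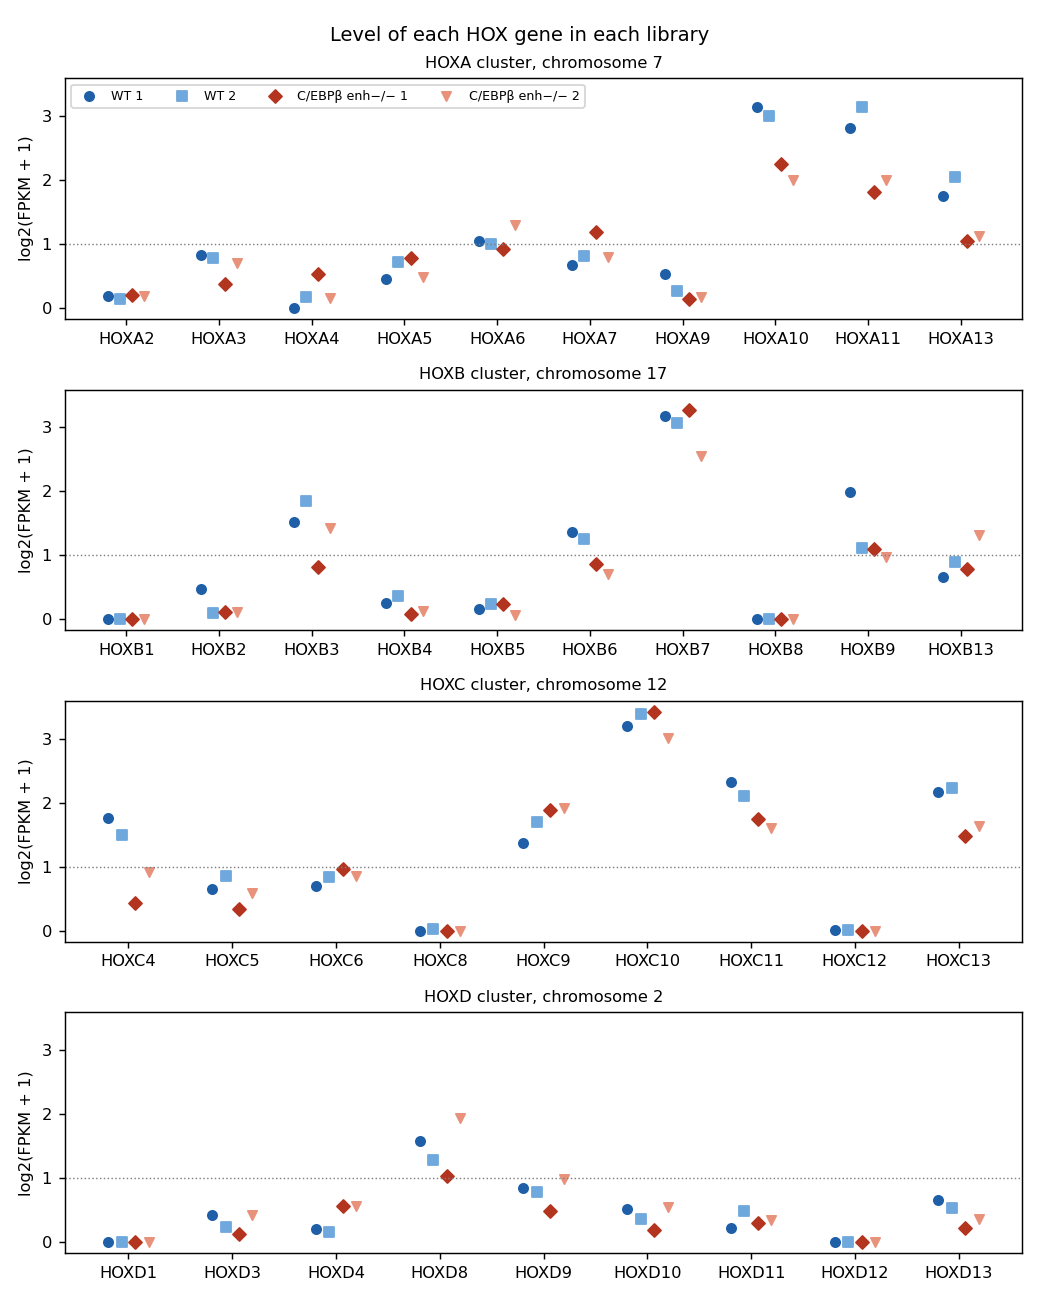
Level of each of the 38 HOX genes in each library as log2(FPKM + 1), by cluster and in order of paralog number, with 1 point per library and a dotted line at an FPKM of 1. Points above the line gather at the right of the HOXA and HOXC panels, HOXD8 is the highest gene of the HOXD panel, and the C/EBPβ enh-/- points of HOXA10, HOXA11 and HOXA13 lie below both WT points.

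The homeobox, the stretch of 180 bases that encodes the homeodomain, was found in a transcript of each of the 38 genes. The last 20 codons are shown for the 7 genes on which the comparisons below turn, to let the paralogs be read against each other. Capitals mark 6 codons of the third helix, the part of the homeodomain that lies in the major groove of DNA, and the sequences are coding bases of exons on GRCh37: HOXA10 (chr7:27211566-27211625, minus strand), HOXA11 (chr7:27222457-27222516, minus), HOXA13 (chr7:27237841-27237900, minus), HOXB7 (chr17:46685270-46685329, minus), HOXC10 (chr12:54383123-54383182, plus), HOXC11 (chr12:54369096-54369155, plus) and HOXC13 (chr12:54338945-54339004, plus).
HOXA10: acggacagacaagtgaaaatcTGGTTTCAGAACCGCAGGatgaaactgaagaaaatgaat
HOXC10: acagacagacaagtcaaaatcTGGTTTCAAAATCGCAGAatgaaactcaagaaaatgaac
HOXA11: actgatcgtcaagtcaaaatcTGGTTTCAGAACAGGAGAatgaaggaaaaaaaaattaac
HOXC11: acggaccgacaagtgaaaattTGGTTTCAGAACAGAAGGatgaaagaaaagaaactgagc
HOXA13: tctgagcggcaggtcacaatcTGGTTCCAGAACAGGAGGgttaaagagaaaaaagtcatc
HOXC13: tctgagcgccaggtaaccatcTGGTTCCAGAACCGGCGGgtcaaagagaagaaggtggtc
HOXB7: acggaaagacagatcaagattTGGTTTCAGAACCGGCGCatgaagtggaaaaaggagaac
Over the whole homeobox, HOXA10 and HOXC10 shared 81.7% of their bases, HOXA11 and HOXC11 82.2%, and HOXA13 and HOXC13 76.1%. Within the HOXA cluster, HOXA10 shared 69.4% with its neighbour HOXA11 and 54.4% with HOXA13. Across all pairs the median identity was 81.7% within a paralog group (40 pairs, from 69.4% to 90.6%) and 61.1% between different groups of the same cluster (162 pairs, from 47.8% to 91.1%, the highest being HOXA6 and HOXA7). How fragments matching more than 1 gene were counted is not given in the sources used here, and sharing of fragments was not tested.

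The comparison of C/EBPβ enh-/- with WT cells asked how loss of the C/EBPβ enhancer went together with gene expression. It used log2(FPKM + 1) and the 14 HOX genes whose mean FPKM reached 1, within a limma fit of all 12491 genes with such a mean. None of the 14 passed an adjusted p of 0.05 in either direction, where 1.21% of all tested genes were called lower in C/EBPβ enh-/- cells and 0.248% higher. Over all tested genes these are 151 lower and 31 higher, or 61 and 23 with FPKM rescaled to the same total, and 68 and 31 with each library centred on its median. At an unadjusted p under 0.05, 5 of 14 were lower (HOXA10, HOXA11, HOXA13, HOXC4 and HOXC13), beside 16.9% of all tested genes, and none was higher, beside 3.86%. In 9 of the 14 genes both C/EBPβ enh-/- libraries were below both WT libraries, in HOXC9 both were above, and 4 genes overlapped. Among all tested genes 37.5% lay below in this way and 15.1% above. The 9 HOX genes became 8 with FPKM rescaled to the same total and 7 with each library centred on its median. The median log2 fold change was −0.53 over the 14 genes (from −1.07 to 0.37, with 11 below 0) and −0.14 over all tested genes. HOXB6 and HOXC4 reached the mean of 1 through the WT libraries alone, so these counts and the median describe the 14 genes and support nothing by themselves.

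When the libraries were paired across genotypes in all 4 ways, the median over the 14 genes lay between −0.63 and −0.37. Set within 1 genotype, WT library 2 gave −0.09 against WT library 1, and C/EBPβ enh-/- library 2 gave 0.05 against library 1. Over all 38 genes, 15 had both C/EBPβ enh-/- values below both WT values and 3 (HOXC6, HOXC9 and HOXD4) had both above, beside 24.4% and 16.4% of the genes above 0 in any library. For a single gene, the smallest p of a two-sided exact permutation test with 2 libraries per genotype is 0.333, so such a test can call none. The labels do not say whether the libraries of a genotype are separate cultures, and the p-values measure only the spread between these libraries. With each library centred on the median of its tested genes, the median over all genes was 0.03, the median over the 14 HOX genes was −0.36, and 3 of them were lower at an unadjusted p under 0.05, beside 10.1% of all tested genes. With no centring, leaving out 1 library at a time moved the count of 5 to between 2 of 14 without WT library 1 (beside 9.4%) and 6 of 14 without C/EBPβ enh-/- library 2 (beside 15.1%). In bulk RNA, fewer cells expressing a gene and less RNA per cell cannot be told apart.

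**Figure D2:**
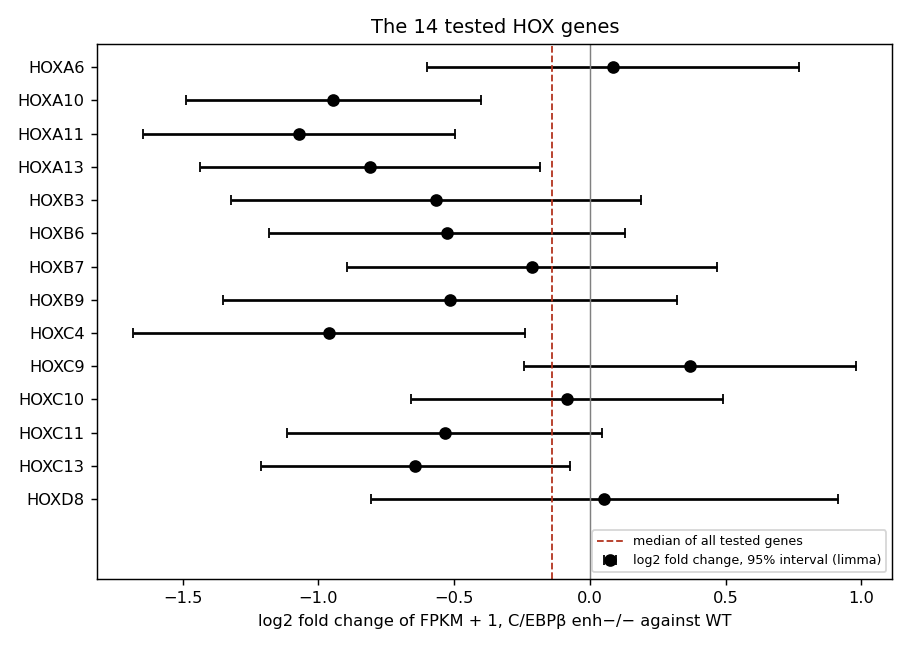
Log2 fold change of FPKM + 1 in C/EBPβ enh-/- cells relative to WT for each of the 14 tested HOX genes, with 95% intervals from limma, a grey line at 0 and a dashed line at the median of all tested genes (−0.14). The intervals of HOXA10, HOXA11, HOXA13, HOXC4 and HOXC13 lie below 0 and that of HOXC9 is centred above it.

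The HOXA cluster (chromosome 7, 27139973 to 27239710 on GRCh37, minus strand) held 4 tested genes, 3 of them at its posterior end. HOXA10, HOXA11 and HOXA13 are transcription factors of the developing uterus, limb and hindgut, and lie next to each other at the posterior end of the cluster. HOXA11 (ENSG00000005073.5, 27220776 to 27224851) was measured at 6.02 and 7.80 FPKM in WT cells and at 2.51 and 2.98 FPKM in C/EBPβ enh-/- cells. The means were 6.91 ± 1.27 and 2.75 ± 0.331 FPKM (SD, n = 2 each), a ratio of 0.397 on the FPKM scale. Both C/EBPβ enh-/- libraries were below both WT libraries, and the gap between the genotypes was wider than the spread within either. The log2 fold change was −1.07 (95% interval −1.65 to −0.50, standard error 0.24), with an adjusted p of 0.0833 from limma that did not pass the threshold.

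HOXA10 (ENSG00000253293.3, 27210224 to 27219880) was measured at 7.80 and 7.01 FPKM in WT cells and at 3.74 and 3.01 FPKM in C/EBPβ enh-/- cells, with a ratio of means of 0.456. Its log2 fold change was −0.94 (95% interval −1.49 to −0.40, adjusted p = 0.0915 from limma). The WT values lay close together and again did not overlap the C/EBPβ enh-/- values. HOXA13 (ENSG00000106031.6, 27233122 to 27239710), the most posterior gene of the cluster, was measured at 2.35 and 3.11 FPKM in WT cells and at 1.07 and 1.17 FPKM in C/EBPβ enh-/- cells. Its log2 fold change was −0.81 (95% interval −1.44 to −0.18, adjusted p = 0.156 from limma). The intervals of the 3 genes overlapped, so their differences were not told apart from each other.

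The remaining HOXA genes were low, and only HOXA6 of them was tested. HOXA6 was measured at 1.07 and 0.989 FPKM in WT cells and at 0.894 and 1.45 FPKM in C/EBPβ enh-/- cells (log2 fold change 0.09, 95% interval −0.60 to 0.77). HOXA7 was measured at 0.592, 0.761, 1.28 and 0.734 FPKM in WT libraries 1 and 2 and C/EBPβ enh-/- libraries 1 and 2, with overlapping genotypes. HOXA2, HOXA3, HOXA4, HOXA5 and HOXA9 stayed below an FPKM of 1 in all libraries. Of these, HOXA3 (0.775 and 0.712 against 0.293 and 0.620 FPKM) and HOXA9 (0.441 and 0.202 against 0.105 and 0.124 FPKM) had both C/EBPβ enh-/- values below both WT values, with ratios of means of 0.614 and 0.355. HOXA9, which lies beside HOXA10, rested on about 7 fragments in C/EBPβ enh-/- library 1.

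Promoters are shown for HOXA10, HOXA11 and HOXA13, since the comparison above turns on these neighbours. They are RefSeq sequences on GRCh38.p14, from 250 bases before to 30 bases after a transcript start, at chr7:27174291-27174570 and chr7:27179832-27180111 for 2 starts of HOXA10, chr7:27185203-27185482 for HOXA11 and chr7:27200062-27200341 for HOXA13, all on the minus strand. Capitals mark matches on either strand to TTGCNNAA (the core of the C/EBP consensus), CCAAT and TATAAA.
HOXA10, first start: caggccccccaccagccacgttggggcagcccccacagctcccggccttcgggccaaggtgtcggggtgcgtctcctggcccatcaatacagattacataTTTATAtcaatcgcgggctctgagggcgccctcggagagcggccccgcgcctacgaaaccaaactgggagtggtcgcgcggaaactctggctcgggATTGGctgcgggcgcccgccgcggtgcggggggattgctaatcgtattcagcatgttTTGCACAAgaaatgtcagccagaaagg
HOXA10, second start: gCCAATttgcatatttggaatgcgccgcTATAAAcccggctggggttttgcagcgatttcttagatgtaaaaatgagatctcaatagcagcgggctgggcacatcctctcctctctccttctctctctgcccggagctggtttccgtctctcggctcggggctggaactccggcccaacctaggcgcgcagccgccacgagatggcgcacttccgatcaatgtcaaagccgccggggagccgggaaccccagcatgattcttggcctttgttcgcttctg
HOXA11: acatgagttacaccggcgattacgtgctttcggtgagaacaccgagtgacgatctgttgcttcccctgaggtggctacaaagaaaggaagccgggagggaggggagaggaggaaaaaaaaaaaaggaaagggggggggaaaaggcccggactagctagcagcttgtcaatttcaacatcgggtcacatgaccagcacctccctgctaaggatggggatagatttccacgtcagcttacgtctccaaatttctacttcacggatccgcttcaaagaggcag
HOXA13: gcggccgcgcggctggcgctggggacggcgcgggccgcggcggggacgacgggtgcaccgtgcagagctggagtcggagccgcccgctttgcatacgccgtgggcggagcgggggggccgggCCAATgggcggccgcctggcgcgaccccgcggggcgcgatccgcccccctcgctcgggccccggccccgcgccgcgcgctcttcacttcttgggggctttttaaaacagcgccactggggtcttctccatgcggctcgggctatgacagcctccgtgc
The first HOXA10 promoter held TTGCNNAA 1 time, beginning at base 4 of the transcript, as well as CCAAT and TATAAA. The second held CCAAT and TATAAA, the HOXA13 promoter held CCAAT, and none of the 3 motifs was in the HOXA11 window. RefSeq promoters of 300 bases matched 20 of the 38 genes, in 26 distinct windows, 1 of which HOXC4 and HOXC5 share. TTGCNNAA was in 3 of the 26 (11.5%, in HOXA10, the window of HOXC4 and HOXC5, and HOXD11) and in 10.5% of all 34943 distinct promoters. CCAAT was in 65.4% of HOX promoters and 34.6% of all, and TATAAA in 19.2% and 11.6%. The HOX promoters held a median of 22.5 CpG sites, against 14 over all promoters, at a near-equal median GC content of 58.0% and 58.7%. A match is a description of the letters only.

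The HOXC cluster (chromosome 12, 54332615 to 54449814, plus strand) held 5 tested genes. HOXC10 (ENSG00000180818.4), a gene of hindlimb and lumbar identity, was measured at 8.18 and 9.43 FPKM in WT cells and at 9.66 and 7.01 FPKM in C/EBPβ enh-/- cells. The genotypes overlapped, and the log2 fold change of −0.08 had a 95% interval from −0.66 to 0.49. This gene, the highest of the HOX genes, thus showed no difference beyond the spread of its libraries, although the interval leaves room for one of moderate size. HOXC9 was measured at 1.58 and 2.26 FPKM in WT cells and at 2.71 and 2.79 FPKM in C/EBPβ enh-/- cells, with a ratio of means of 1.43. It was the only tested HOX gene with both C/EBPβ enh-/- values above both WT values, and its log2 fold change of 0.37 had a 95% interval from −0.24 to 0.98, and was 0.20 without WT library 1.

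HOXC4, the gene at the anterior end of the cluster, was measured at 2.39 and 1.83 FPKM in WT cells and at 0.351 and 0.878 FPKM in C/EBPβ enh-/- cells. The ratio of means was 0.291, the lowest of the tested HOX genes, and the log2 fold change was −0.96 (95% interval −1.68 to −0.24, adjusted p = 0.149 from limma), or −1.72 with a pseudocount of 0.1. The value in C/EBPβ enh-/- library 1 stood for about 21 fragments. HOXC13, a regulator of hair keratin genes at the posterior end, was measured at 3.47 and 3.70 FPKM in WT cells and at 1.79 and 2.09 FPKM in C/EBPβ enh-/- cells (log2 fold change −0.64, adjusted p = 0.195 from limma). HOXC11 was measured at 3.98 and 3.30 against 2.36 and 2.03 FPKM (log2 fold change −0.54, 95% interval −1.11 to 0.04). In these 3 genes both C/EBPβ enh-/- libraries were below both WT libraries.

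The other HOXC genes stayed below an FPKM of 1. HOXC5 was measured at 0.567 and 0.802 against 0.267 and 0.497 FPKM, and HOXC6 at 0.626 and 0.779 against 0.939 and 0.816 FPKM. HOXC8 had a value above 0 in WT library 2 only (0.0134 FPKM, about 1 fragment), and HOXC12 in the WT libraries only (0.0117 and 0.00650 FPKM). For HOXC8 and HOXC12 a difference was not detectable at this depth.

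In the HOXB cluster (chromosome 17, 46605888 to 46806112, minus strand) 4 genes were tested, with log2 fold changes from −0.57 to −0.21 and intervals that all included 0. HOXB7, a factor linked to growth control in several cancers, was measured at 8.07 and 7.36 FPKM in WT cells and at 8.61 and 4.87 FPKM in C/EBPβ enh-/- cells. The C/EBPβ enh-/- libraries lay on both sides of the WT libraries, and the log2 fold change was −0.21 (95% interval −0.90 to 0.47). HOXB6 was measured at 1.58 and 1.38 against 0.817 and 0.635 FPKM (log2 fold change −0.52, 95% interval −1.18 to 0.13, and −0.94 with a pseudocount of 0.1). HOXB3 was measured at 1.88 and 2.61 against 0.755 and 1.70 FPKM (log2 fold change −0.57, 95% interval −1.32 to 0.19, −0.26 without C/EBPβ enh-/- library 1 and −0.90 with a pseudocount of 0.1). HOXB6 and HOXB3 did not overlap between the genotypes, but each interval included 0.

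HOXB9 was measured at 2.96 and 1.16 FPKM in WT cells and at 1.14 and 0.963 FPKM in C/EBPβ enh-/- cells, so that WT library 2 lay close to the C/EBPβ enh-/- libraries (log2 fold change −0.52, 95% interval −1.35 to 0.32). Without WT library 1 its log2 fold change was −0.08, without WT library 2 it was −0.95, and with a pseudocount of 0.1 it was −0.78. HOXB13, a gene of the prostate and hindgut that lies apart from the rest of the cluster, was measured at 0.574 and 0.851 against 0.725 and 1.49 FPKM and had a mean below 1. HOXB2, HOXB4 and HOXB5 also stayed below an FPKM of 1. Of these, HOXB4 (0.190 and 0.283 against 0.0614 and 0.0989 FPKM) did not overlap.

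The HOXD cluster (chromosome 2, 176957449 to 177055635, plus strand) was the least expressed. HOXD8, the only HOXD gene with a mean of at least 1, was measured at 1.98 and 1.44 FPKM in WT cells and at 1.04 and 2.84 FPKM in C/EBPβ enh-/- cells. The spread was wider among C/EBPβ enh-/- than among WT libraries, and the log2 fold change of 0.05 had a 95% interval from −0.81 to 0.91. HOXD9 (0.790 and 0.723 against 0.400 and 0.972 FPKM), HOXD10 (0.422 and 0.289 against 0.138 and 0.453 FPKM), HOXD3 (0.334 and 0.170 against 0.0952 and 0.345 FPKM) and HOXD11 (0.162 and 0.402 against 0.225 and 0.265 FPKM) overlapped between the genotypes. HOXD8, HOXD9, HOXD10 and HOXD3 were all lowest in C/EBPβ enh-/- library 1, the shallowest, and highest in C/EBPβ enh-/- library 2. HOXD13 (0.583 and 0.440 against 0.161 and 0.277 FPKM) was lower in both C/EBPβ enh-/- libraries. HOXD4 (0.155 and 0.111 against 0.480 and 0.483 FPKM) was higher in both, on about 6 to 26 fragments a library.

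Summed over the 38 genes, HOX expression was 60.8 ± 0.337 FPKM in WT cells and 43.3 ± 1.29 FPKM in C/EBPβ enh-/- cells (SD, n = 2 each), a ratio of 0.712. The FPKM of all protein-coding genes summed to 378000 and 396300 in WT cells and to 344900 and 317000 in C/EBPβ enh-/- cells. Among protein-coding genes, a lower sum was thus not particular to the HOX genes. All tested genes, coding or not, summed to 543200 and 534600 FPKM in WT cells and to 611700 and 481500 FPKM in C/EBPβ enh-/- cells, which overlapped. The HOXA sum went from 20.5 ± 1.35 to 11.0 ± 0.332 FPKM (ratio 0.536). Smaller differences were seen for HOXC (21.5 ± 0.912 and 17.1 ± 1.39 FPKM, ratio 0.796) and HOXB (14.8 ± 1.32 and 11.1 ± 1.76 FPKM, ratio 0.750). The sums of these 3 clusters did not overlap between the genotypes. The HOXD sum was 4.43 and 3.57 FPKM in WT cells and 2.54 and 5.63 FPKM in C/EBPβ enh-/- cells (ratio of means 1.02).

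HOXA10, HOXA11 and HOXA13 together held 28.0% of the WT sum and 16.7% of the C/EBPβ enh-/- sum, at 17.0 ± 1.25 and 7.24 ± 0.114 FPKM. The other 7 HOXA genes summed to 3.38 and 3.53 FPKM in WT cells and to 3.89 and 3.58 FPKM in C/EBPβ enh-/- cells. The 3 genes were set together after their values were seen, so their sum describes them only. Genes of paralog groups 9 to 13 held 65.8% and 60.5% of the sum, so the pattern was posterior in both genotypes.

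**Figure D3:**
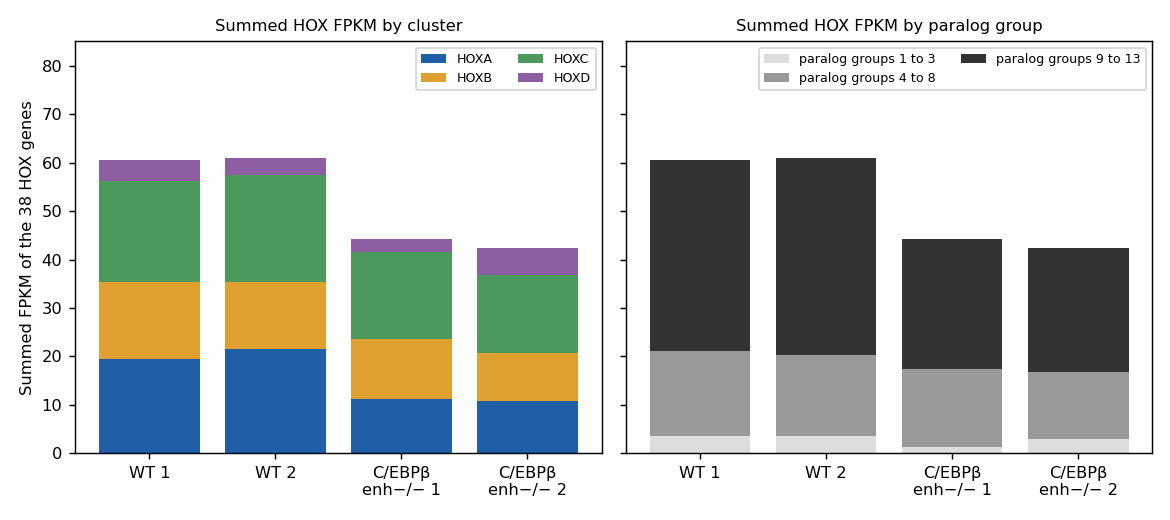
Summed FPKM of the 38 HOX genes in each of the 4 libraries, stacked by cluster (left) and by paralog group (right). The HOXA block is 19.5 and 21.5 FPKM in WT and 11.2 and 10.7 FPKM in C/EBPβ enh-/- libraries, and the block of paralog groups 9 to 13 is the largest in every library.

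Ratios between HOX genes of the same library do not depend on the scaling of that library. The ratio of HOXA10 to HOXC10 was 0.953 and 0.743 in WT cells and 0.388 and 0.430 in C/EBPβ enh-/- cells. The ratio of HOXA11 to HOXC10 was 0.735 and 0.828 against 0.260 and 0.425, and that of HOXA13 to HOXC10 was 0.287 and 0.330 against 0.110 and 0.167. Relative to HOXC10, HOXC11 (0.487 and 0.349 against 0.244 and 0.290) and HOXC13 (0.425 and 0.392 against 0.185 and 0.298) were lower too, whereas HOXC9 was higher (0.194 and 0.239 against 0.281 and 0.398). These 6 ratios share HOXC10 and restate the differences of the 6 genes without the scaling of the libraries. Relative to HOXB7, HOXA10 was at 0.966 and 0.953 against 0.435 and 0.619. HOXA11 was at 0.746 and 1.06 against 0.292 and 0.612, and HOXA13 at 0.291 and 0.423 against 0.124 and 0.240. For HOXA11 and HOXA13 relative to HOXB7, the gap between the nearest values was smaller than the spread within WT cells. Within paralog groups, the ratio of HOXA11 to HOXC11 was 1.51 and 2.37 against 1.07 and 1.47, and that of HOXA13 to HOXC13 was 0.675 and 0.841 against 0.597 and 0.559. Both of these ratios were lower in each C/EBPβ enh-/- library than in either WT library. The gaps between the nearest values of the genotypes were smaller than the spread within WT cells.

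Non-coding genes lie among the HOX genes, several of them antisense to a HOX gene, and 40 are annotated in the clusters or within 10 kb of them. Of these 10 were tested, none passed the adjusted threshold, and 2 had an unadjusted p under 0.05. Both were lower in C/EBPβ enh-/- cells, a share near the 16.9% of all tested genes. HOXA11-AS, the antisense transcript of HOXA11, had the lowest p of them. It was measured at 6.91 and 5.76 FPKM in WT cells and at 1.04 and 2.01 FPKM in C/EBPβ enh-/- cells, with a log2 fold change of −1.56 (adjusted p = 0.0559 from limma). HOXA11 and HOXA11-AS share 726 exonic bases on opposite strands, and since the strand used in counting is not given in the sources used here, their fragments cannot be told apart over these bases.

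HOTTIP and HOTAIR, 2 long non-coding RNAs that bind chromatin regulators, were chosen after their values were seen. HOTTIP, at the HOXA13 end of the cluster, was measured at 0.825 and 0.754 FPKM in WT cells and at 0.273 and 0.153 FPKM in C/EBPβ enh-/- cells. HOTAIR, between HOXC11 and HOXC12, was measured at 2.99 and 1.46 against 0.528 and 0.964 FPKM (log2 fold change −0.86, adjusted p = 0.218 from limma), and it too reached the mean of 1 through the WT libraries alone. HOTAIRM1, at the anterior end of HOXA, was the highest of the non-coding genes and overlapped between the genotypes, at 15.1 and 10.5 against 13.6 and 7.02 FPKM. Exons of the opposite strand overlapped 19 of the 38 HOX genes, 10 of them tested. Exons of another gene on the same strand overlapped 13, 5 of them tested. Among these were HOXC4 with HOXC6 over 484 bases and HOXB3 with HOXB6 over 433 bases.

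**Figure D4:**
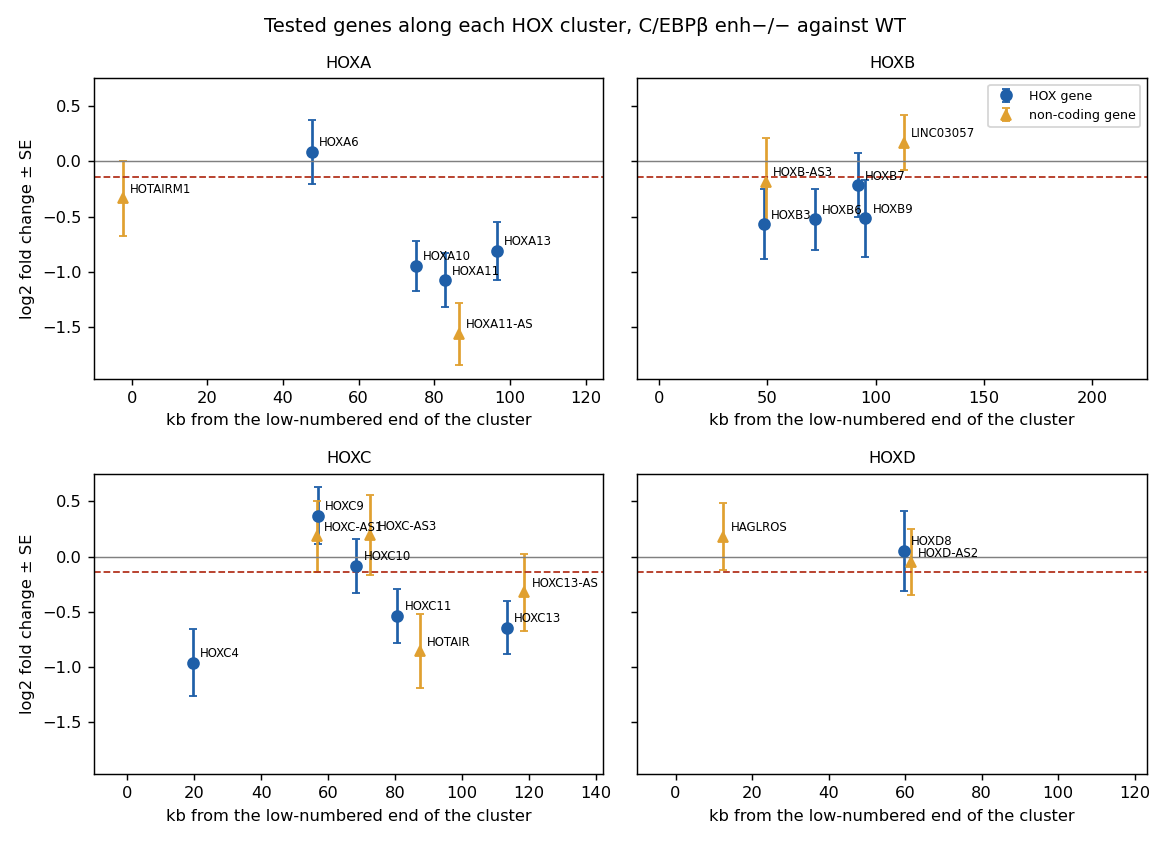
Log2 fold change (± standard error) of the tested HOX genes and non-coding genes against distance in kb from the low-numbered end of each cluster to the middle of the gene, with a dashed line at the median of all tested genes. HOXA10, HOXA11, HOXA11-AS and HOXA13 lie together at −0.81 or below at the high-numbered end of HOXA, whereas HOXA6 and HOTAIRM1 lie at −0.33 or above.

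The genes around the clusters were examined beside them. Of the 5 nearest protein-coding genes on each side of each cluster, 40 in all, 32 were tested and none passed the adjusted threshold. At an unadjusted p under 0.05, 11 of the 32 were lower and none higher, beside 16.9% and 3.86% of all tested genes. The lowest p was that of AGPS, an enzyme of ether lipid synthesis near HOXD, with a log2 fold change of −1.04 (adjusted p = 0.119 from limma). Their median log2 fold change was −0.41 in all, −0.42 beside HOXA, −0.31 beside HOXB, 0.01 beside HOXC and −0.60 beside HOXD. The whole chromosomes had medians of −0.20 (chromosome 7), −0.47 (17), −0.22 (12) and −0.44 (2). The tested HOX genes had medians of −0.88 in HOXA (4 genes), −0.52 in HOXB (4 genes) and −0.54 in HOXC (5 genes). HOXD8, the only tested HOXD gene, was at 0.05. The HOXB median lay close to that of chromosome 17. HOXB6 and HOXC4, which reached the mean of 1 through the WT libraries alone, enter the HOXB and HOXC medians. These medians therefore describe the tested genes only. The part of these surroundings in the HOX values was not tested.

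Partners and regulators of HOX genes were read from 6 lists, and none of their genes passed the adjusted threshold. PBX, MEIS and PKNOX proteins bind DNA together with HOX proteins, and 6 of 9 were tested, with a median log2 fold change of 0.00. None of the 6 had an unadjusted p under 0.05. Polycomb proteins keep HOX genes silent, and the 20 tested had a median of −0.13. Among them BMI1, a subunit of the ubiquitin ligase complex PRC1, was measured at 14.4 and 16.0 against 9.27 and 9.37 FPKM (adjusted p = 0.156 from limma), the only one with an unadjusted p under 0.05.

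Trithorax and MLL complex genes, which keep HOX genes active, had a median of 0.00 over 11 tested genes, with the lowest p in ASH2L (log2 fold change 0.50, adjusted p = 0.369 from limma). Of the receptors and enzymes of retinoic acid, an inducer of anterior HOX genes, together with the CDX factors, 6 of 13 were tested with a median of −0.38, and 2 had an unadjusted p under 0.05, both lower. RARG, a retinoic acid receptor, was measured at 9.80 and 8.98 against 4.92 and 5.52 FPKM (log2 fold change −0.74, adjusted p = 0.129 from limma). CTCF and cohesin genes, which shape the domains of the clusters, had a median of −0.17 over 6 tested genes, with the lowest p in WAPL (log2 fold change −0.50, adjusted p = 0.277 from limma). Among 40 homeobox genes related to HOX outside the clusters, 7 were tested. Their median was 0.11 and 5 of the 7 were above 0, beside 4677 of all 12491 tested genes. NKX2-1, a factor of lung and thyroid, had the lowest p, at 1.98 and 2.68 FPKM in WT cells and 0.417 and 0.537 FPKM in C/EBPβ enh-/- cells (log2 fold change −1.17, adjusted p = 0.0908 from limma). NKX2-1 reached the mean of 1 through the WT libraries alone. HMX3, 1 of the 5, reached it only through the C/EBPβ enh-/- libraries (means 0.851 FPKM in WT and 1.75 FPKM in C/EBPβ enh-/- cells). The count and the median of the 7 therefore support nothing by themselves.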

How the data were processed

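RNA-seq was analysed in 4 libraries, 2 per genotype, grouped and numbered by their labels. The authors deposited 1 FPKM value per gene and library, with no counts. The submitters' processing notes name hg19, TopHat2 2.0.13, Cufflinks and edgeR without their roles. The labels' extraction text describes chromatin rather than RNA, and strand and the handling of shared fragments are not given in the sources used here. FPKM depends on the other genes of a library.

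Of 57815 entries per file, 57768 remained without pseudoautosomal copies. Symbols and coordinates came from GENCODE release 44 on GRCh37, promoters from RefSeq on GRCh38.p14, and homeoboxes from GENCODE transcripts, translated to find the conserved stretch.

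The 12491 genes whose mean FPKM reached 1 were compared as log2(FPKM + 1), which understates the change of low genes, with limma 3.58.1 in R 4.3.3 (lmFit, eBayes with trend), two-sided, with Benjamini-Hochberg adjustment over all of them and a threshold of 0.05. The fit was also run on simulated data with independent normal values, and no result here draws on its outcome. Named were the 38 HOX genes described. Of other lists, the genes past the threshold or with the lowest p were named, and the other non-coding genes named were chosen after their values were seen. Members and lists were chosen with earlier results of these data known, and 1 further gene under the rule is left out here. Alternatives were no filter, a mean of at least 0.1 or 5, a pseudocount of 0.1, rescaling to the same total, median centring, the replicate number as a block, no trend, and leaving out each library. Same-numbered libraries did not deviate together (correlation 0.00945). Depth was read from low values, of which 43.5% to 48.9% lay within 0.1 of a whole fragment, so it is approximate. Python 3.11.15 was used with pandas 2.3.3 and numpy 2.4.6 for tables and matplotlib 3.10.9 for plots.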

Additional observations from a re-analysis of the deposited data

How the results depend on the processing

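No HOX gene was called under any of the alternatives. Of 157 alternative values of single HOX genes, 7 changed sign, none passed the threshold, and 10 of 14 genes never changed sign, HOXA10 (−1.12 to −0.77), HOXA11 (−1.29 to −0.90), HOXA13, HOXC4 and HOXC13 among them. The adjusted p of HOXA11 ran from 0.0754 to 0.380 and that of HOXA10 from 0.0850 to 0.443 (limma). HOXC10 became 0.091 with median centring. Leaving out 1 library at a time gave log2 fold changes from −0.29 to 0.12 for HOXC10, −0.40 to 0.51 for HOXD8, −0.10 to 0.27 for HOXA6, −0.57 to 0.14 for HOXB7, −0.95 to −0.08 for HOXB9 and −0.88 to −0.26 for HOXB3. HOXC4 was −1.72 with a pseudocount of 0.1, further from 0 than HOXA11 at −1.29.

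The median over the tested HOX genes was −0.082 with no filter, −0.13 at a mean FPKM of at least 0.1, −0.21 at a mean of at least 5 (3 HOX genes), −0.82 with a pseudocount of 0.1 and −0.36 with median centring, where the filter and pseudocount change which genes enter or how much low values weigh. Without 1 library it was −0.60 to −0.45.

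Over all genes, 151 lower and 31 higher calls became 0 and 0 with no filter (2710 lower and 1136 higher at an unadjusted p under 0.05). There were 78 lower calls at a mean of at least 0.1, 61 with rescaling, 68 with centring and 93 with the replicate number as a block, and 20 higher calls at a mean of at least 5. Leaving out 1 library gave 9 to 22 lower and 3 to 20 higher calls, with 1 library of a genotype then assumed to vary like the others, and the cause was not tested for rescaling, centring and the block. The block changed no HOX call (HOXA11 adjusted p = 0.0980, limma). The 24 HOX genes below a mean of 1 entered only the fits with a lower filter or none, and some rested on few fragments, about 7 for HOXA9 at 0.105 FPKM.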

Other observations

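Of 30 long non-coding RNAs of the clusters, 27 were above 0 in any library, 7 had both C/EBPβ enh-/- values below both WT values and 4 had both above, beside 24.4% and 16.4% of all genes above 0. A further 3 of them, too low to be tested, are given here and were chosen after their values were seen. ENSG00000253508, between HOXA11 and HOXA13, was listed at 1.53 and 1.43 FPKM in WT cells and at 0.354 and 0.459 FPKM in C/EBPβ enh-/- cells. It was lower in C/EBPβ enh-/- cells, as its neighbours HOXA11-AS and HOTTIP were. ENSG00000273046, which shares exonic bases with HOXC4, HOXC5 and HOXC6 on the same strand, was higher, at 0.213 and 0.186 against 0.528 and 0.559 FPKM. HOXB-AS1 was also higher, at 0.0731 and 0.145 against 0.228 and 0.472 FPKM.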
